A study of Mus musculus with 56 samples.

Results

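MHC class II antigen presentation genes were examined in the livers of mice with diet-induced obesity and metabolic dysfunction-associated steatohepatitis (DIO-MASH). The 8 genes were found by symbol in the deposited gene count matrix, 8 of the 21935 genes it lists. They are H2-Aa, H2-Ab1, H2-Eb1, H2-DMa, H2-DMb1, Cd74, Ciita and Ctss, and all 8 passed the low-count filter (at least 5 reads in at least 3 mice), which left 14105 genes for testing. Liver RNA was sequenced from 56 male C57BL/6J mice, 8 in each of 7 groups, that were 5 to 6 weeks old when they arrived. The chow vehicle group was fed chow. The other 6 groups received the AMLN diet, a high-fat diet with added fructose and cholesterol, for 36 weeks before dosing and stayed on it during dosing. Mice on the AMLN diet entered the study with steatosis and fibrosis in a liver biopsy, were housed singly, and all 7 groups were injected subcutaneously once daily for 8 weeks. The DIO-MASH vehicle group was given vehicle. Low-dose zalfermin was 0.05 mg/kg and high-dose zalfermin 0.2 mg/kg, zalfermin being an engineered FGF21 with prolonged action. Low-dose semaglutide was 3 µg/kg and high-dose semaglutide 120 µg/kg, semaglutide being a GLP-1 receptor agonist. The combination group was given zalfermin and semaglutide, both at the low dose according to the study's methods, while the design text deposited with the data speaks of both high doses and the sample labels give no dose. Groups are compared with DIO-MASH vehicle to ask whether class II genes differ with diet and with treatment, and the combination with each monotherapy to ask whether they differ beyond the single drugs.

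MHC class II molecules carry peptides from proteins taken up by a cell to its surface, where CD4+ T cells read them. The alpha and beta chains pair in the endoplasmic reticulum with the invariant chain, which blocks the peptide groove and guides the complex to endosomes. There the protease cathepsin S trims the invariant chain, and the H2-DM protein exchanges its last fragment for a peptide. In the liver, class II is known from dendritic cells, B cells, Kupffer cells and recruited macrophages, while hepatocytes carry little of it. The coactivator CIITA turns the whole set of class II genes on through promoter elements named the X and Y boxes, and interferon-gamma is its best known inducer outside of dendritic cells and B cells.

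H2-Aa encodes the alpha chain and H2-Ab1 the beta chain of the I-A molecule. H2-Eb1 encodes the beta chain of I-E, whose alpha chain is not made in C57BL/6 mice. H2-DMa and H2-DMb1 encode the chains of H2-DM, Cd74 the invariant chain, Ciita the coactivator and Ctss cathepsin S. On GRCm38 with GENCODE M21 genes, the first 5 lie together on chromosome 17. H2-DMa is at chr17:34119541-34139101, H2-DMb1 at chr17:34153072-34160230, H2-Ab1 at chr17:34257689-34269419, H2-Aa at chr17:34282744-34287823 and H2-Eb1 at chr17:34305867-34316674. Only H2-Aa of these is on the minus strand. Ciita is at chr16:10480059-10528418 and Ctss at chr3:95526786-95556403, both on the plus strand, and Cd74 lies on another chromosome. H2-DMb1 has a near-copy beside it, H2-DMb2, and reads from the stretches they share cannot be assigned with certainty.

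RefSeq promoter windows (GRCm38.p6) were at hand for 5 of the 8 genes. The 250 bases before the start site are shown for 3 of them, 1 alpha chain, 1 beta chain and the protease, because class II promoters are known for these elements and the genes moved together in the comparisons given later. They are written 5′ to 3′ on the strand of the gene, and capitals mark matches to letter patterns searched on both strands. The X box pattern was CTAGCAACTGATG with any base allowed at the fifth and the ninth letter, the X2 box TGACGTCA, the Y box GATTGG, and the interferon-stimulated response element GAAACCGAAA with any base allowed for its inner CC. The patterns were chosen after these promoters had been read, and no matches overlapped in the sequences shown.
H2-Aa, chr17:34287824-34288073, minus strand: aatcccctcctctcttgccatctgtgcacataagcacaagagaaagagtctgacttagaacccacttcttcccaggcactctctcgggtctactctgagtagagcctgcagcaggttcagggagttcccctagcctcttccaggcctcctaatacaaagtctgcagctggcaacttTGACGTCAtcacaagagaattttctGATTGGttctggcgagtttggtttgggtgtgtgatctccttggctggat
H2-Eb1, chr17:34305617-34305866, plus strand: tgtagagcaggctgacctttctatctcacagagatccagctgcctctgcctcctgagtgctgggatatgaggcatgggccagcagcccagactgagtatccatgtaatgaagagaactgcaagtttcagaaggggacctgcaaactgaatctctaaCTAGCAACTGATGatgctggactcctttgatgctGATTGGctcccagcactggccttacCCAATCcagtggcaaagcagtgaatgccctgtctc
Ctss, chr3:95526536-95526785, plus strand: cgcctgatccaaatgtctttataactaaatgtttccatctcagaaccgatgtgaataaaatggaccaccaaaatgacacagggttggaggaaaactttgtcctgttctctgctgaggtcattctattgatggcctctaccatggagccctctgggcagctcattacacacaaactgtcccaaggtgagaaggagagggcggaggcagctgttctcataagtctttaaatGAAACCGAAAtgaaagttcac

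In H2-Eb1 the X box match began 94 bases before the start site, and a Y box match began 21 bases beyond its end. In H2-DMb1 the X box match CTAGTAACTGATG began 97 bases before the RefSeq start site, with 22 bases to its Y box. By GENCODE 119 of the 250 bases of that window lie in an H2-DMb1 exon, and both matches fall inside it. H2-DMa had no X match. Of its windows, 1 held a Y match 199 bases before the start site and the other held no match. H2-Aa matched the X2 and Y patterns, 74 and 49 bases before the start site, but not the X pattern in these letters. Ctss matched only the interferon element, 21 bases before the start site. The X pattern was found in 9 of 32851 RefSeq windows of this length (0.0274%), the X2 pattern in 1.55%, the Y pattern in 14.6% and the interferon pattern in 2.98%. H2-Eb1 and H2-DMb1 are among the 9. Because the patterns were chosen with the promoters known, these shares only describe how common the letters are and do not test the matches. A match is a description of the letters and not a measured binding site. H2-Ab1, Cd74 and Ciita had no window in the RefSeq table.

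Total counts per mouse ran from 5228187 to 20885786, with a median of 12206788. The mice of a group are separate animals. Some mice stood apart in these genes. Chow vehicle mouse 8 was the highest of its group for 7 of the 8 genes, low-dose zalfermin mouse 1 and low-dose semaglutide mouse 6 were the lowest of theirs for all 8, and combination mouse 3 and high-dose semaglutide mouse 3 were also the lowest for all 8. The study excluded 1 low-dose semaglutide mouse from its RNA data, which the labels do not mark, so all 56 mice are used here and results that change without a single mouse are given with and without it. As a check of the labelled tissue, the summed level of 8 hepatocyte markers was between 67526 and 238933 CPM (a gene's reads scaled to a common library total, with TMM library sizes) over all mice.

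Class II genes differed widely in level within DIO-MASH vehicle livers. Per kilobase of the median GENCODE transcript, Cd74 had the highest mean level at 425 ± 107 CPM per kb (SD, n = 8), followed by H2-Aa at 314 ± 75.7, H2-Ab1 at 214 ± 63.2 and H2-Eb1 at 143 ± 39.5. Ctss was next at 139 ± 34.9 CPM per kb. H2-DMa and H2-DMb1 were lower, at 12.7 ± 3.86 and 12.6 ± 3.63 CPM per kb, and Ciita was the lowest at 2.57 ± 0.65. Mouse by mouse, the order from Cd74 to H2-Eb1 was the same in all 56 mice, and so was the step from Ctss down to the H2-DM genes and from H2-DMb1 down to Ciita. Neighbours that did not differ beyond their spread were H2-Eb1 and Ctss, with H2-Eb1 higher in 4 of 8 DIO-MASH vehicle mice. H2-DMa and H2-DMb1 changed places with the transcript length used, H2-DMa being higher in 31 of 56 mice on the median transcript and in 6 of 56 on all annotated exons.

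The classical chains were lower in chow-fed than in DIO-MASH vehicle livers. H2-Aa was between 17.7 and 230 CPM in chow vehicle mice with a median of 32.3, and between 210 and 443 CPM in DIO-MASH vehicle mice with a median of 308. The 7 chow mice other than mouse 8 lay at or below 52.3 CPM, under every DIO-MASH vehicle mouse, and mouse 8 lay within their range. In whole liver, fewer class II-bearing cells and less class II RNA per cell cannot be told apart, here and in the comparisons that follow. H2-Aa fell by 2.38 ± 0.35 on the log2 scale (SE; 95% interval -3.08 to -1.68), 5.2-fold lower, with an adjusted p of 1.14e-07 in edgeR's quasi-likelihood F test. H2-Ab1 was at a median of 24.2 CPM (15.6 to 166) in chow and 226 CPM (144 to 360) in DIO-MASH vehicle mice. It fell by 2.32 ± 0.33 (edgeR adjusted p = 7.64e-08), and as with H2-Aa only chow mouse 8 reached into the DIO-MASH range. H2-Eb1 was at a median of 27.4 CPM (14.5 to 97.0) in chow and 242 CPM (154 to 363) in DIO-MASH vehicle mice. The groups did not overlap, and H2-Eb1 fell by 2.72 ± 0.32 (edgeR adjusted p = 4.00e-10).

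The genes that load and guide class II were lower in chow-fed livers as well. Cd74 was at a median of 65.2 CPM (38.3 to 377) in chow and 577 CPM (405 to 829) in DIO-MASH vehicle mice. It fell by 2.32 ± 0.33 on the log2 scale (edgeR adjusted p = 7.37e-08), and no chow mouse reached the lowest DIO-MASH vehicle mouse. H2-DMa was at a median of 3.46 CPM (1.89 to 15.4) against 21.1 CPM (13.1 to 33.7) and fell by 2.05 ± 0.28 (edgeR adjusted p = 2.17e-08). H2-DMb1 was at a median of 1.88 CPM (1.53 to 17.2) against 16.8 CPM (11.5 to 28.8) and fell by 2.19 ± 0.34 (edgeR adjusted p = 2.71e-07). For both H2-DM genes only chow mouse 8 lay within the DIO-MASH range. Ctss was at a median of 23.5 CPM (15.4 to 71.0) in chow and 174 CPM (145 to 289) in DIO-MASH vehicle mice, the groups did not overlap, and it fell by 2.47 ± 0.26 (edgeR adjusted p = 3.73e-11).

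The coactivator Ciita showed the largest difference of the 8 genes. It was at a median of 1.04 CPM (0.22 to 3.45) in chow and 10.5 CPM (7.53 to 14.5) in DIO-MASH vehicle mice, without overlap. Ciita fell by 3.17 ± 0.36 on the log2 scale, 9.02-fold lower (edgeR adjusted p = 2.20e-10). Its chow values rest on 1 to 28 reads per mouse, and those of H2-DMb1 on 8 to 140.

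In all, 8 of 8 class II genes were called lower in chow-fed than in DIO-MASH vehicle livers at an adjusted p under 0.05, while 28.9% of the 14105 genes tested were called lower. Their median log2 fold change was -2.35, beside -0.01 for all genes tested. For 4 of the 8 every chow mouse was below every DIO-MASH vehicle mouse, which held for 9.49% of all genes. Without chow mouse 8, all 8 stayed called, and the log2 fold changes moved from between -3.17 and -2.05 to between -3.56 and -2.51. Within each of the 4 runs of sample numbers in the labels, whose meaning is not stated, all 8 differences were negative. The second run holds only 1 chow mouse and the fourth only 1 DIO-MASH vehicle mouse. Because the 8 genes vary together, their signs within a run are not independent.

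**Figure D1:**
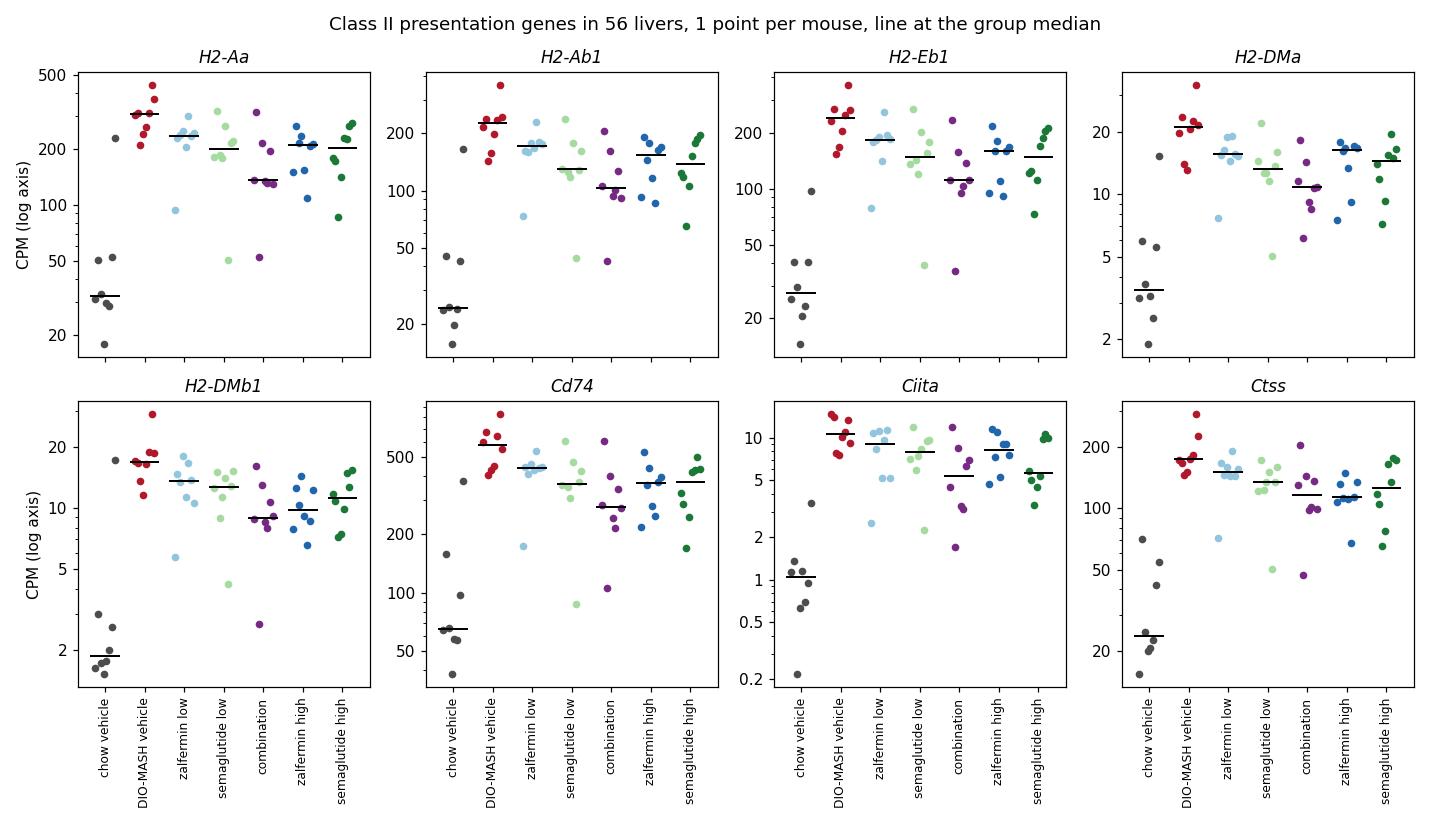
CPM of the 8 class II genes on log axes, 1 point per mouse, with a line at each group's median, for the 7 groups of 8 mice. The chow vehicle median is the lowest and the DIO-MASH vehicle median the highest in each panel, the 5 treated groups lie between, and chow mouse 8 stands above the other chow mice in all panels but Ctss.

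Under low-dose zalfermin no class II gene passed the test. H2-Aa was at a median of 236 CPM (94.1 to 299) and Cd74 at 442 CPM (174 to 540), and in both cases the lowest value was mouse 1 and the next lowest lay at 205 and 408 CPM. All 8 log2 fold changes were negative, from -0.47 to -0.36, with 95% intervals reaching from -1.12 to 0.21. None was called (edgeR adjusted p 0.496 to 0.634), 0 had an unadjusted p under 0.05, and DESeq2 called 0, with no adjusted p for 3 of them. Of all genes 0.0496% were called lower. Without mouse 1 the differences ran from -0.36 to -0.25. In the second run of sample numbers they lay between -0.14 and 0.09, with 4 of 8 negative.

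Under low-dose semaglutide no class II gene passed the test either. H2-Aa was at a median of 201 CPM (50.3 to 319), Cd74 at 365 CPM (87.7 to 601) and Ciita at 7.89 CPM (2.23 to 11.9), the lowest of each being mouse 6. Log2 fold changes ran from -0.67 for H2-Ab1 to -0.49 for Ciita, with intervals from -1.31 to 0.10. None was called (edgeR adjusted p 0.463 to 0.658). The unadjusted p was under 0.05 for 4 of 8, DESeq2 called 0, with no adjusted p for 3 of them, and 0% of all genes were called lower. Without mouse 6, the 8 differences ran from -0.54 to -0.36 and the adjusted p was 0.999 for each.

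Under the combination 7 of the 8 class II genes were lower than in DIO-MASH vehicle livers. H2-Aa was at a median of 135 CPM (52.3 to 315) in the combination group, against 308 CPM in DIO-MASH vehicle mice. Cd74 was at 278 CPM (106 to 602), Ciita at 5.37 CPM (1.70 to 11.8) and Ctss at 116 CPM (46.9 to 205). For each of the 8 genes, 6 or 7 of the 8 combination mice were below the lowest DIO-MASH vehicle mouse, while combination mouse 2, the highest of its group for all 8, lay within the DIO-MASH range.

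H2-Eb1 fell by 0.95 ± 0.30 on the log2 scale under the combination (edgeR adjusted p = 0.0164) and H2-Ab1 by 0.95 ± 0.32 (adjusted p = 0.0276). H2-Aa fell by 0.91 ± 0.33 (edgeR adjusted p = 0.0439). These are 1.93-fold, 1.93-fold and 1.87-fold lower levels. H2-DMa fell by 0.91 ± 0.26, with the smallest adjusted p of the 8 genes (edgeR, 0.00903), and H2-DMb1 by 0.87 ± 0.31 (0.0346). Cd74 fell by 0.89 ± 0.32 (edgeR adjusted p = 0.0382) and Ciita by 0.91 ± 0.30 (0.0241). Ctss had a log2 fold change of -0.65 ± 0.25 and was not called (edgeR adjusted p = 0.0527), although DESeq2 called it (adjusted p = 0.0402).

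The 7 of 8 called lower stand beside 10.9% of all genes tested. Their median log2 fold change was -0.91, beside -0.03 for all genes. Without combination mouse 3 only H2-Eb1 and H2-DMa stayed called (2 of 8), and the 8 differences ran from -0.82 to -0.52. Leaving out DIO-MASH vehicle mouse 7 or combination mouse 5 left 3 calls, and leaving out DIO-MASH vehicle mouse 6 or combination mouse 1 or 6 left 4. Without combination mouse 2, the highest, all 8 were called. Without low-dose semaglutide mouse 6, which enters only through the shared estimate of the spread, all 8 were also called. In each of the 3 runs of sample numbers that hold both groups, all 8 differences were negative, from -1.43 to -0.55. With the runs in the model 5 of 8 were called, and H2-Aa and H2-DMb1 lost their calls.

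**Figure D2:**
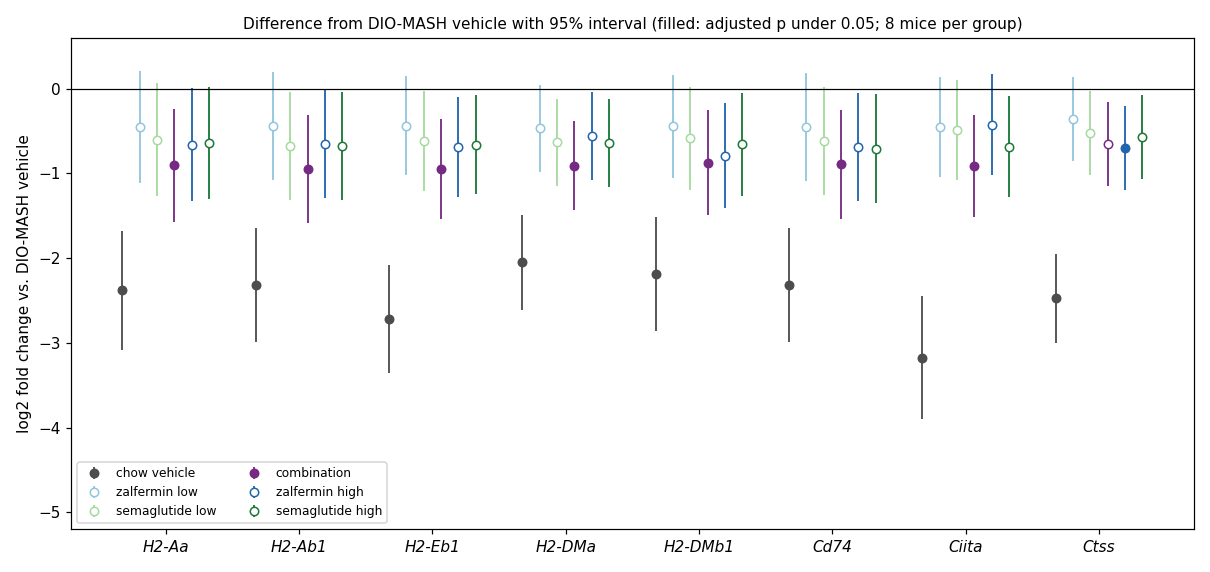
Log2 fold change of each class II gene vs. DIO-MASH vehicle with its 95% interval, for chow vehicle and the 5 treated groups (8 mice per group), filled where the adjusted p was under 0.05. Chow points lie between -3.17 and -2.05, combination points between -0.95 and -0.65, and the points of the 4 monotherapies between -0.79 and -0.36 with only Ctss under high-dose zalfermin filled.

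Under high-dose zalfermin only Ctss passed the test. Ctss was at a median of 113 CPM (67.4 to 149) and fell by 0.70 ± 0.25 (edgeR adjusted p = 0.0418), the only one of 8 called, while 8.68% of all genes were called lower. H2-DMb1 was at a median of 9.74 CPM (6.56 to 14.3), with a log2 fold change of -0.79 ± 0.31 (edgeR adjusted p = 0.0658). Ciita was at a median of 8.23 CPM (4.67 to 11.5), with the smallest difference, -0.43 ± 0.30 (edgeR adjusted p = 0.352). All 8 differences were negative, and 6 had an unadjusted p under 0.05. When only these 2 groups were fitted, 7 of 8 were called, and with the runs of sample numbers in the model 0 were. In the same comparison 4 of 13 recruited macrophage markers were lower, with log2 fold changes of -0.95 for Ccr2, -0.88 for Trem2, -0.86 for Cx3cr1 and -0.72 for Cd9, and their list summed to 614 to 1106 CPM against 1118 to 1645 in DIO-MASH vehicle mice. Of 12 dendritic cell markers 1 was lower, Itgax (edgeR adjusted p = 0.0236). The 11 not called went in both directions, from -0.43 for Siglech to 0.64 for Xcr1 on the log2 scale. Of hepatocyte markers, 7 of 8 were higher. The part of these lists in the result was not tested. The call of Ctss was lost without any 1 of DIO-MASH vehicle mice 6, 7 and 8 or of high-dose zalfermin mice 1, 3, 5, 6 and 7.

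Under high-dose semaglutide no class II gene was called. H2-Aa was at a median of 202 CPM (86.6 to 275), Cd74 at 372 CPM (169 to 499) and Ciita at 5.6 CPM (3.37 to 10.6). Log2 fold changes ran from -0.71 for Cd74 to -0.57 for Ctss. None passed in edgeR (adjusted p 0.182 to 0.313) or by DESeq2, 7 of 8 had an unadjusted p under 0.05, and 1% of all genes were called lower. In the second run of sample numbers, with 2 and 3 mice, the differences lay between -0.20 and 0.16.

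The comparisons with DIO-MASH vehicle share the same 8 vehicle mice, so the treatments were also compared directly. No class II gene was called between the combination and low-dose zalfermin, with log2 differences of -0.51 to -0.29 and 95% intervals within -1.14 and 0.21 (6.62% of all genes called). The same held against low-dose semaglutide, at -0.42 to -0.12 with intervals within -1.03 and 0.37 (4.21%). Against high-dose zalfermin the differences were -0.49 to 0.05 with intervals within -1.10 and 0.55 (0.503%), and against high-dose semaglutide -0.29 to -0.08 with intervals within -0.93 and 0.45 (1.89%). Ciita gave the most negative difference of the 8 against low-dose semaglutide and high-dose zalfermin. These intervals leave room for a 2-fold difference in either comparison with a low dose and in that with high-dose zalfermin. Against high-dose semaglutide they reach -0.93, so a lack of difference is not shown in any of these comparisons.

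No class II gene was called between doses of the same drug. High-dose vs. low-dose zalfermin gave log2 differences from -0.35 to 0.02 with intervals within -0.97 and 0.63, and 1.84% of all genes were called. For high-dose vs. low-dose semaglutide the 8 differences were -0.19 to -0.00 with intervals within -0.79 and 0.63, and 0% of genes were called. The low-dose interaction, which is the combination minus both low-dose monotherapies plus DIO-MASH vehicle and would be 0 if log2 differences added, was 0.03 to 0.23 for the 8 genes with intervals within -0.82 and 1.09. None was called by edgeR (adjusted p 0.983 to 0.999), and 0.0142% of all genes were. In these 6 direct comparisons and the interaction, edgeR and DESeq2 each called 0 of 8 (DESeq2 gave no adjusted p for 1 gene in the interaction), and 0 had an unadjusted p under 0.05.

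Class II genes were still above chow levels in the treated mice that were compared with chow. All 8 were called higher than chow under the combination, by 1.14 to 2.26 on the log2 scale, while 17.4% of all genes were called higher. Under high-dose zalfermin the 8 genes were higher by 1.40 to 2.75 (19.7% of genes called higher), and under high-dose semaglutide by 1.41 to 2.49 (21.3%). In each case Ciita was the furthest above chow, at 4.79-fold, 6.71-fold and 5.61-fold the chow level, and the largest adjusted p of any gene in the 3 comparisons was 0.00205 in edgeR.

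Within and across groups the 8 genes went up and down together over mice. With group means subtracted, Pearson's r of log2 CPM over 56 mice was between 0.71 and 0.98 for the 28 pairs, with a median of 0.90. The 15 pairs among chains, H2-DM genes and Cd74 were at 0.90 to 0.98, the pairs of Ciita with them at 0.79 to 0.84, and the pairs with Ctss at 0.71 to 0.89. Without the 2 mice farthest from the median, chow mouse 8 and low-dose semaglutide mouse 6, the 28 pairs were between 0.64 and 0.98. These values share library, depth and cell content, and are given as a description.

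The ratio of H2-Ab1 to H2-Aa, the chains of one molecule, was narrow. It was between 0.60 and 0.90 in all 56 mice, with a median of 0.73, while H2-Aa itself ranged from 17.7 to 443 CPM. Cd74 stood at 1.46 to 3.15 times H2-Aa, with a median of 1.87. The ratio of H2-DMb1 to H2-DMa had a median of 0.53 in chow (0.47 to 1.12) and 0.85 in DIO-MASH vehicle mice (0.71 to 0.98), with chow mouse 8 at the upper end. The ratio of Ctss to H2-Aa was 0.49 to 1.40 in the other chow mice and 0.24 in chow mouse 8, which had 54.6 CPM of Ctss and 97.0 CPM of H2-Eb1 beside 230 CPM of H2-Aa.

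**Figure D3:**
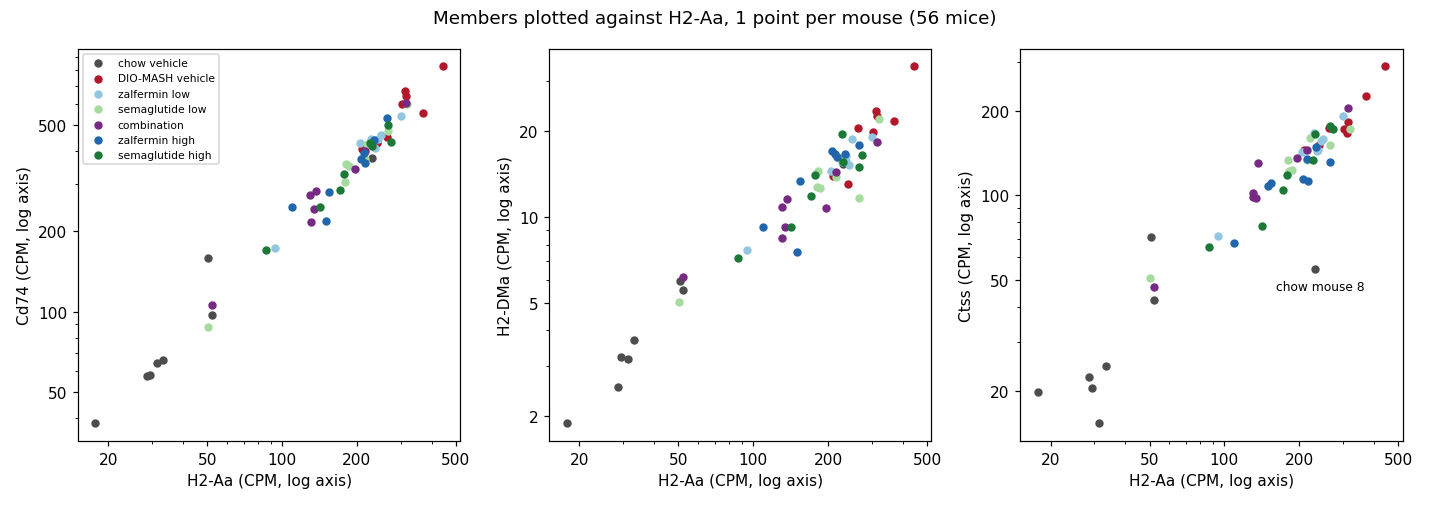
Cd74, H2-DMa and Ctss against H2-Aa in CPM on log axes, 1 point per mouse (56 mice), coloured by group. Points of all groups follow one band in the Cd74 panel, and chow mouse 8, at 230 CPM of H2-Aa and 54.6 CPM of Ctss, lies below the band in the Ctss panel.

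Outside the 8 genes, the log2 CPM of Ucp2, a mitochondrial carrier, followed their mean z-score most closely (r = 0.90 over 56 mice, group means subtracted), then Fgl2, Ms4a6c, Iqgap1, Clic1, Ubd, Itgax and Neurl3 (0.88 to 0.89). This order depended on chow mouse 8 and low-dose semaglutide mouse 6. Without them Ubd was at 0.88, Itgax at 0.87 and Ms4a6c at 0.86, above Ucp2 at 0.85. Ubd encodes the ubiquitin-like protein FAT10. It was 4.84 lower on the log2 scale in chow (edgeR adjusted p = 1.56e-09) and fell by 2.65 under the combination (5.94e-05), a larger difference than for any of the 8 class II genes. Itgax, which encodes CD11c, fell by 4.07 in chow (edgeR adjusted p = 6.77e-12) and by 1.05 under the combination (0.0148). Ms4a6c fell by 2.64 in chow (edgeR adjusted p = 6.99e-11) and had a log2 fold change of -0.62 under the combination (0.0666).

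Other genes of the pathway were taken from lists. Beside the shares of all genes called lower given above, 26.5% were called higher in chow, 10% under the combination and 8.54% under high-dose zalfermin, and the counts of each list stand against these. Of the less abundant class II chains, 4 of 4 measured were called lower in chow, with log2 fold changes of -3.26 for H2-Eb2, -2.90 for H2-Oa, -2.55 for H2-DMb2 and -1.83 for H2-Ob. H2-Oa and H2-Ob form H2-DO, which restrains H2-DM, and are known from B cells. None of the 4 was called under the combination, where their log2 fold changes ran from -1.32 for H2-Eb2 to -0.60 for H2-Ob. They are scarce genes, summing to between 1.93 and 19.7 CPM in DIO-MASH vehicle mice.

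Among 9 factors that bind class II promoters, some passed the test in each direction. Irf8, Spi1 and Nfya were lower in chow, by 1.53, 1.34 and 0.72 on the log2 scale, and Nfyb was higher by 0.38 (edgeR adjusted p 3.00e-07, 7.35e-06, 1.70e-05 and 0.00211). IRF8 and PU.1, the product of Spi1, are factors of macrophages, dendritic cells and B cells. The RFX subunits Rfx5, Rfxap and Rfxank and the factor Creb1, found in many cell types, had differences between -0.29 and 0.32 and were not called. Under the combination Nfyb was higher by 0.41 and Nfya lower by 0.43, while Irf8 at -0.53 and Spi1 at -0.47 were not called.

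Of the interferon-gamma axis, 8 of 11 tested genes were called lower in chow and none higher. Gbp2, a guanylate-binding protein, fell by 1.82, the chemokine Cxcl9 by 1.81 and the interferon-gamma receptor subunit Ifngr2 by 0.34 on the log2 scale, while the kinase Jak1 had -0.04. Under the combination 2 of 11 were lower, among them Ifngr2 by 0.60, and Cxcl9 at -0.37 and Gbp2 at -0.39 were not called. Ifng itself was below the filter, between 0 and 0.32 CPM in DIO-MASH vehicle mice and at 0 in 7 of 8 chow mice.

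Of 10 endosomal proteases and cofactors other than Ctss 3 were lower and 3 higher in chow, shares near those of all genes, among them Lgmn, which encodes legumain and fell by 1.05, and Ctsh, which rose by 0.64. Ctsb had -0.20 and Lamp1 -0.06. Of class I presentation genes 5 of 12 were lower in chow, led by the transporter Tap1 at -1.18 and the immunoproteasome subunit Psmb9 at -1.15, and 2 were higher. B2m at 0.04 was not called, and H2-K1 was higher by 0.20. Under the combination 2 of 12 class I genes were lower, Tap1 by 0.47 and Psmb9 by 0.75, and 1 was higher, Erap1 by 0.33. The median log2 fold change of the 12 was 0.05. Of 6 costimulation and turnover genes 5 were lower in chow, among them March1, the ligase that removes class II from the surface, by 1.96, Cd40 by 1.62 and Cd86 by 1.40. Under the combination only March8 was called, lower by 0.23.

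**Figure D4:**
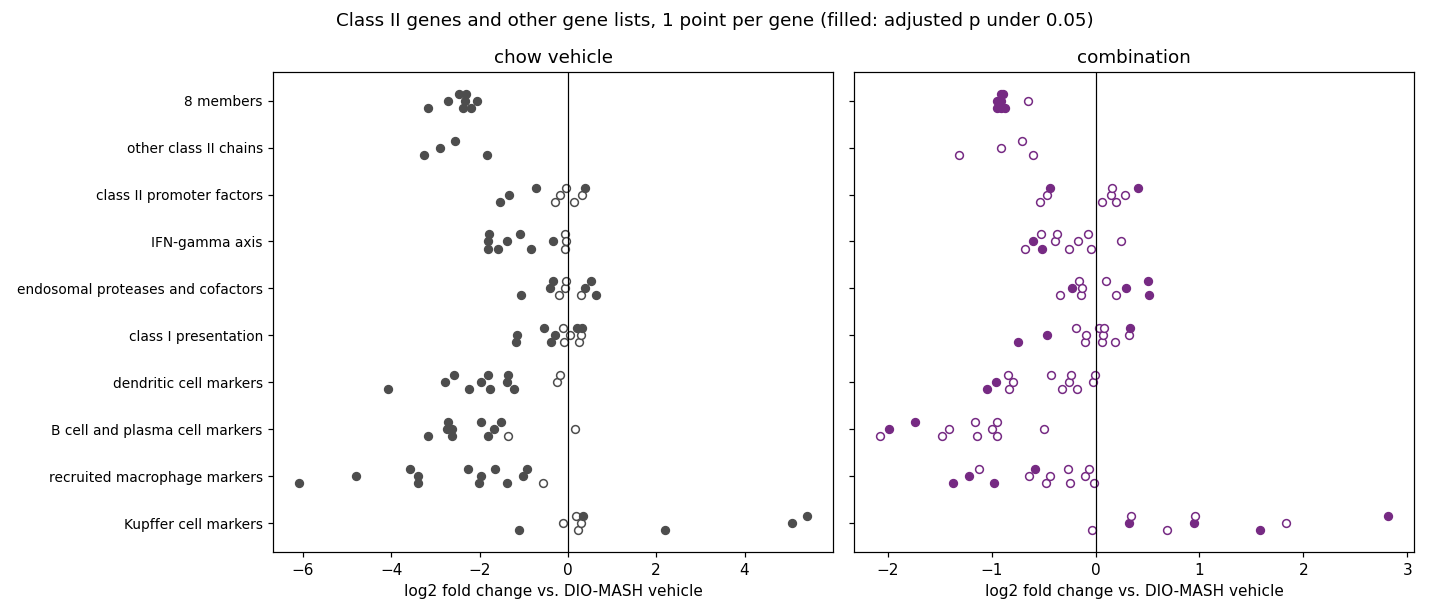
Log2 fold change vs. DIO-MASH vehicle for chow vehicle (left) and the combination (right), 1 point per gene, filled where the adjusted p was under 0.05, for the 8 class II genes and 9 other lists. The 8 class II genes lie between -3.17 and -2.05 on the left and between -0.95 and -0.65 on the right, while class I genes and promoter factors spread around 0.

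Markers of the cells that carry class II differed in the same comparisons, more of them in chow than under the combination. Their part in the class II result was not tested. Of dendritic cell markers 10 of 12 were lower in chow, and their summed level was 11.4 to 22.5 CPM in chow and 43.1 to 61.2 CPM in DIO-MASH vehicle mice. Under the combination the sum was 14.5 to 55.9 CPM and 2 of 12 were lower, Itgax and Fscn1, the latter by 0.95, while Ccr7 at -0.80 on the log2 scale was not called. The 10 not called ran from -0.84 for Batf3 to -0.03 for Xcr1 and -0.01 for Clec9a. Itgax and Fscn1 weigh most in the sum, with means of 23.4 and 15.5 CPM in DIO-MASH vehicle mice, the highest of the list. Of recruited macrophage markers 12 of 13 were lower in chow, with log2 fold changes of -6.09 for Gpnmb, -4.80 for Trem2, -3.40 for Spp1 and -1.97 for Mpeg1 and a summed level of 169 to 626 CPM against 1118 to 1645. The combination lowered 4 of 13, at a sum of 394 to 1225 CPM, with Spp1 lower by 1.37 and Mpeg1 at -0.44 not called. Spp1, Mpeg1, Lyz2 and Csf1r weigh most in these sums, with means of 350, 349, 208 and 118 CPM in DIO-MASH vehicle mice. The sums are therefore not a measure of recruited macrophages alone.

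Of Kupffer cell markers few were called lower. In chow 4 of 9 were higher, among them Marco by 5.42 and Cd163 by 5.07, and Cd5l fell by 1.11. Under the combination 4 of 9 were higher and none lower, Clec4f by 0.94 and Marco by 2.82 on the log2 scale, and their sum was 351 to 713 CPM against 239 to 549 in DIO-MASH vehicle mice. The pan-leukocyte gene Ptprc fell by 2.12 in chow and was at -0.66 under the combination, not called (edgeR adjusted p = 0.0530). Of 7 leukocyte and T cell markers 7 were lower in chow and 0 under the combination, where Cd3e was at -0.25, and their sum was 5.83 to 20.9 CPM in chow, 22.4 to 60.2 in DIO-MASH vehicle and 10.9 to 50.6 CPM in combination mice.

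B cell and plasma cell markers were uneven between mice. Of 11, 9 were lower in chow and 2 under the combination, among them Cr2 by 3.17 and 1.74 on the log2 scale and Pax5 by 2.74 in chow. Under high-dose semaglutide 5 of 11 were lower, beside 1% of all genes called lower. Their sum was 5.5 to 322 CPM in chow mice, 10.6 to 205 CPM in DIO-MASH vehicle, 8.87 to 102 CPM in combination and 9.57 to 31.9 CPM in high-dose semaglutide mice. The highest chow mouse was mouse 8, at 314 CPM of Jchain, a plasma cell gene, while its group's next mouse had 39.7 CPM. Mouse 8 was also the highest chow mouse for the B cell gene Cd79a, at 2.09 CPM with the next at 1.23 CPM, while for Ms4a1, another B cell gene, mouse 2 was the highest.

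Hepatocyte markers and some stellate cell markers also differed, while endothelial markers went in both directions. Of hepatocyte markers 8 of 8 were higher in chow, Alb by 1.37 and Serpina1a by 1.47 on the log2 scale, and 6 of 8 under the combination, Alb by 0.66. Of sinusoidal endothelial markers 3 of 8 were lower and 1 higher in chow, beside 28.9% and 26.5% of all genes. Their median log2 fold change in chow was 0.11, with Stab2 at -0.37 and Lyve1 at -1.24. Under the combination 2 of 8 were lower, beside 10.9% of all genes. Of stellate cell and cholangiocyte markers 5 of 9 were lower in chow, among them Pdgfrb by 2.62, while Krt19 at 1.15 was not called. Under the combination 3 of 9 were lower, Lrat by 0.67, Reln by 0.65 and Pdgfrb by 0.86. The 6 not called there lay between -0.52 for Epcam and -0.15 for Sox9. Under low-dose zalfermin and low-dose semaglutide no gene of these lists was called. In no group was a gene of these lists at 0 in all mice.

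**Figure D5:**
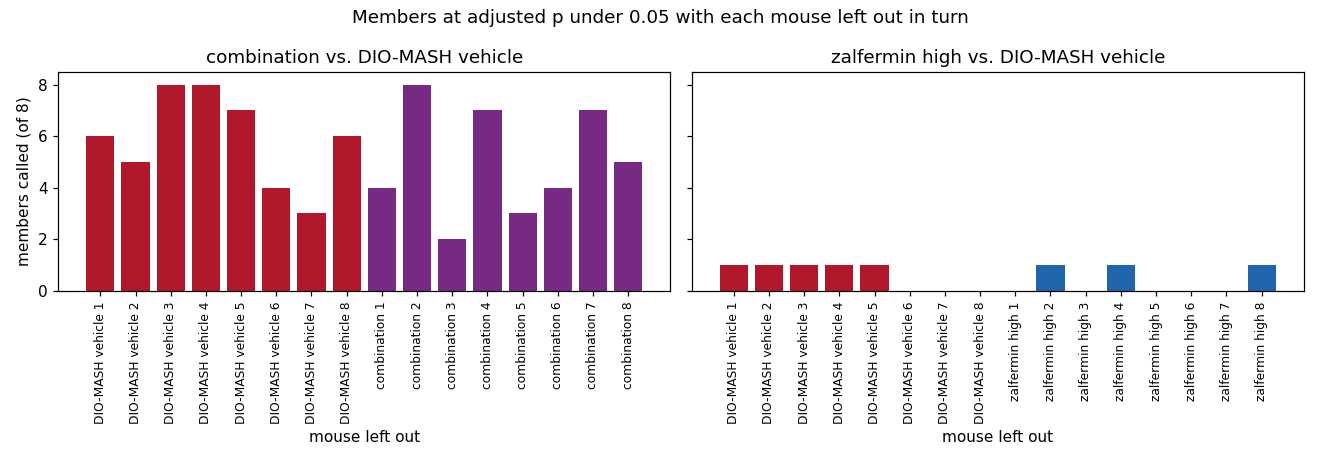
Number of the 8 class II genes with an adjusted p under 0.05 vs. DIO-MASH vehicle when each mouse of the 2 groups is left out in turn, for the combination (left) and high-dose zalfermin (right). For the combination the count runs from 2, without combination mouse 3, to 8, and for high-dose zalfermin it is 0 or 1.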

How the data were processed

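RNA from snap-frozen terminal liver was sequenced as stranded mRNA libraries, and the authors deposited a gene table of raw read counts with 1 column per mouse, used here as deposited. The study's methods name the aligner STAR and GRCm38, while the submitters' processing notes list Trim Galore 0.6.4 and Salmon 1.9.0. Which of these made the counts, and whether strand was used, is not given in the sources used here. Groups came from the sample labels (8 mice in each of 7 groups).

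Counts were tested with edgeR 4.0.16 in R 4.3.3 (quasi-likelihood F test, TMM scaling, 1 fit of all 7 groups), after a filter of at least 5 reads in at least 3 mice, and p-values were adjusted by Benjamini-Hochberg over all 14105 genes tested. CPM used TMM library sizes. An adjusted p under 0.05 was called. DESeq2 1.42.0, its size factors, other filters, the runs of sample numbers as a model term, a fit of only the groups compared, and leaving out each mouse were the alternatives. The scripts were tested on simulated data. Replicate columns were compared, and none was a copy of another.

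The 8 genes and the other lists were chosen with earlier results of these data known. Most genes named from the other lists were among the 2 with the highest mean CPM or the 2 with the largest chow difference. Cd22, Nkg7, Apob, Ecm1 and Krt7 also met this rule in their lists and were not named. From outside the lists the 8 most correlated genes were named. Further genes named to complete small counts or to give the other direction were chosen after their values were seen. Examples are Nfya, Cd79a, Ms4a1, Ccr2, Cx3cr1, Cd9, Lrat, Krt19 and Erap1. Total counts of 5228187 to 20885786 per mouse set the precision of genes with few reads, such as Ciita in chow mice.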

Additional observations from a re-analysis of the deposited data

Results flagged for a closer look

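In each of 56 sets of 8 mice (8 genes in 7 groups), the gap between the most extreme mouse and its nearest neighbour was set against the whole range, both on the log2 CPM scale. Such a gap exceeded Dixon's 95% limit in 19 cases from 5 mice. Chance flags about 1 in 20 groups, and the 8 genes vary together, so the 19 are not independent.

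Low-dose semaglutide mouse 6 was far below its group for all 8 genes, at 50.3 CPM of H2-Aa, 44.1 of H2-Ab1, 38.9 of H2-Eb1, 5.04 of H2-DMa, 4.22 of H2-DMb1, 87.7 of Cd74, 2.23 of Ciita and 50.6 of Ctss. Low-dose zalfermin mouse 1 was far below its group for 6 genes, at 94.1 CPM of H2-Aa, 73.7 of H2-Ab1, 7.67 of H2-DMa, 5.77 of H2-DMb1, 174 of Cd74 and 71.5 of Ctss. Chow vehicle mouse 8 was far above its group, at 230 CPM of H2-Aa, 166 of H2-Ab1 and 17.2 of H2-DMb1. Combination mouse 3 was low at 2.70 CPM of H2-DMb1, and high-dose zalfermin mouse 6 at 67.4 CPM of Ctss.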

How the results depend on the processing

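Of the 8 class II genes, 7 were called lower under the combination and 1 under high-dose zalfermin. Leaving out 1 mouse of the groups compared moved the first count to between 2 and 8 and the second to between 0 and 1. With the runs of sample numbers in the model the counts were 5 and 0, and in a fit of only the groups compared 8 and 7. Without a low-count filter they were 6 and 1, and with a stricter filter 8 and 1. DESeq2 gave 8 and 1, and its size factors in the edgeR fit 7 and 1. The cause of these changes was not tested. No log2 fold change of a class II gene changed sign among called values under these alternatives. All 8 stayed called in chow without each mouse in turn. In the fit of only the groups compared, 7 of 8 stayed called between the combination and chow. No number pairs single mice across groups, since each mouse has a label number of its own, and the runs of numbers entered the model as a term instead. Ciita had 1 to 28 reads in chow mice.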
